A study of Mus musculus with 6 samples.

Results

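The mRNA decay factors examined here are 7 genes of 3 families: Zfp36, Zfp36l1 and Zfp36l2 of the tristetraprolin family, Rc3h1 and Rc3h2, which encode Roquin-1 and Roquin-2, and Zc3h12a and Zc3h12d, which encode Regnase-1 and Regnase-4. They were chosen by name, with earlier results of these data known. Every probe that the platform annotation gives to one of them was taken. This found 15 of the 45281 probes on the array and all 7 genes, of 19057 genes named on it. Illumina bead arrays measured their expression in regulatory T cells (Treg) from 2 sites, with 3 arrays of cells from the lamina propria of the colon (cLP Treg) and 3 of cells from the mesenteric lymph node (MLN Treg). All were T cell receptor beta-positive, CD4-positive, Foxp3-positive cells sorted from C57BL/6 mice labelled Foxp3gfp and kept in the steady state, and RNA was amplified in 2 rounds before hybridisation. The labels give no ages and do not say whether the 3 arrays of a group came from separate or pooled animals, so the p-values rest on the spread among these 6 arrays, which may be technical.

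Proteins of the tristetraprolin family bind AU-rich elements in the 3′ untranslated regions of cytokine and growth-response mRNAs and recruit the CCR4-NOT deadenylase, which shortens the poly(A) tail. Roquin proteins bind stem-loops in mRNAs such as those of Icos and Tnfrsf4 and recruit the same deadenylase, and Regnase-1 is an endoribonuclease that cuts overlapping stem-loop targets. In T cells, Roquin-1, Roquin-2 and Regnase-1 are cleaved by the protease MALT1 after engagement of the T cell receptor, and mice that lack these factors in T cells develop activated T cells and inflammation.

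Treg markers were checked on the arrays, and all 6 listed were kept. Foxp3, which encodes the defining transcription factor of these cells, averaged 13.58 ± 0.26 (SD, n = 3) in cLP Treg and 13.59 ± 0.20 (SD, n = 3) in MLN Treg as log2 intensity. Of the 6 markers 2 were higher and 1 lower in cLP Treg. The inhibitory receptor gene Ctla4 (1.05 ± 0.20; limma, adjusted p = 0.00679) and Ikzf2, which encodes Helios (2.22 ± 0.59; 0.0249), were the higher ones, and Il2ra, the interleukin-2 receptor alpha chain, was lower (-1.67 ± 0.36; 0.0112). Cd3e differed by -0.60 ± 0.25 without overlap (0.1) and Cd4 by -0.07 ± 0.23 (0.836). A probe was called detected on an array where the detection p was under 0.05, and 34.29% to 35.43% of probes were detected on cLP arrays, against 32.68% to 35.15% on MLN arrays. Probes detected on at least 3 of the 6 arrays were kept, and the brightest kept probe of each gene was tested with limma, with Benjamini-Hochberg adjustment over all 9157 genes and a threshold of 0.05. Of these genes 32.5% passed, 1110 higher and 1864 lower in cLP Treg, and 37.3% of the calls were higher. The median difference over all genes was -0.21 on the log2 scale. With median scaling it was -0.51 (831 higher, 3038 lower; 21.5% higher), in the authors' deposited log2 values -0.30 (881 and 2771; 24.1%), and with the array medians set equal -0.03 (1328 and 1406; 48.6%). Differences relative to that median are therefore given beside those of the decay factors.

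Of the 7 decay factor genes, 6 could be tested. Zc3h12a was higher in cLP Treg by its only kept probe. The reported probes of Rc3h1 and Rc3h2 were lower, but in each of these genes a second kept probe was higher. Zfp36, Zfp36l1 and Zc3h12d did not pass the threshold, and the Zfp36l2 probe was not kept. Thus 1 gene passed as higher and 2 as lower, against 32.5% of all genes tested that passed in either direction. In 4 of the 6 genes the groups did not overlap, as in 47% of all genes. Of these, 2 had cLP Treg above (16.8% of all genes) and 2 had MLN Treg above (30.1%). Of the 10 kept probes of these genes, 4 were higher (14.5% of all 16215 kept probes), 2 were lower (17.4%) and 4 did not pass, and 31.9% of all kept probes passed in either direction. The groups did not overlap on 8 of the 10, against 46.5% of all kept probes. One of the 4 higher probes, of Zfp36l1, was detected on no MLN array, so it was kept through its cLP values alone. Another, ILMN_1251986 of Rc3h2, was detected on 3 cLP arrays and 1 MLN array, so it would not have been kept without its cLP values. Both are counted among the 8 probes whose groups did not overlap. In bulk samples such as these, a different number of expressing cells and a different amount of RNA per cell cannot be told apart.

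**Figure D1:**
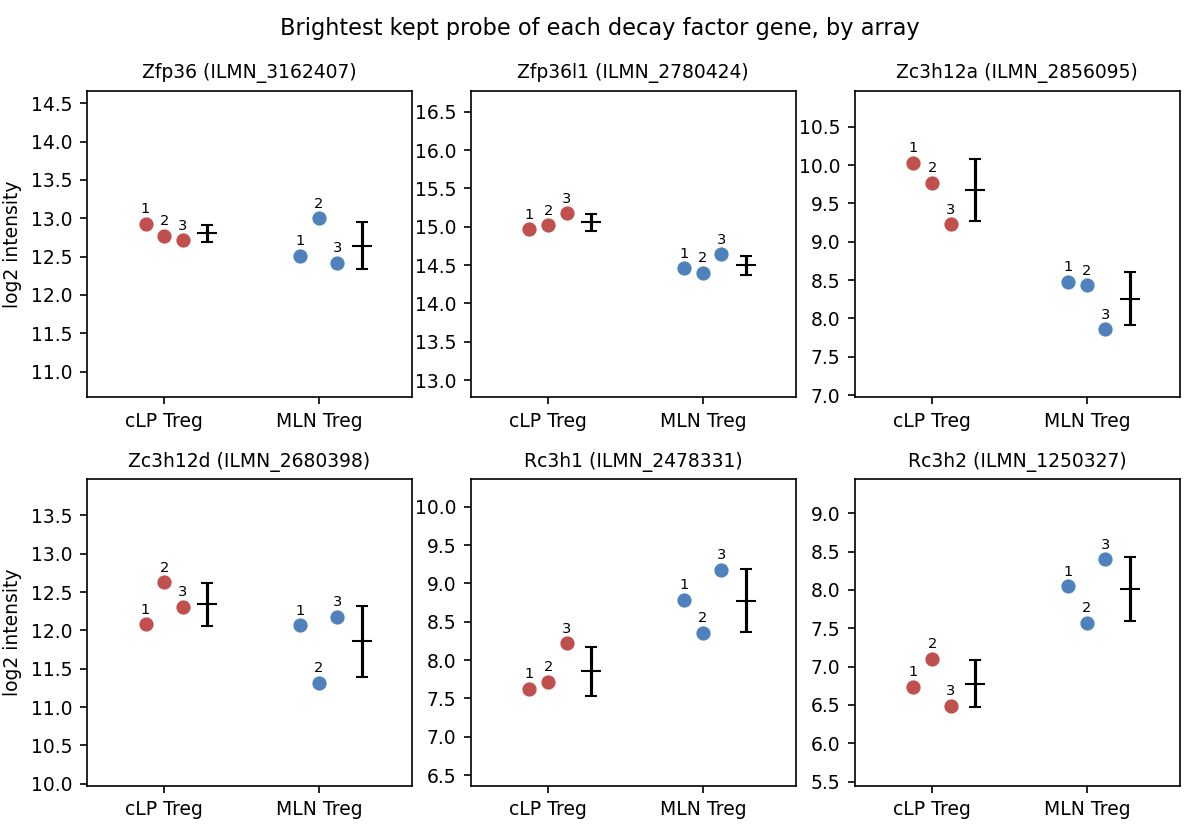
Log2 intensity (vertical axis, a span of 4 units in each panel) of the brightest kept probe of the 6 tested genes on each array of cLP Treg (red, left) and MLN Treg (blue, right); numbers are replicates, and bars show mean ± SD of 3 arrays. The groups separate for Zfp36l1, Zc3h12a, Rc3h1 and Rc3h2 and overlap for Zfp36 and Zc3h12d.

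Regnase-1 showed the change that passed under every setting tried, although on a single probe. Zc3h12a lies at chr4:125118414-125127881 (GRCm38.p6), and its probe ILMN_2856095 had log2 intensities of 10.03, 9.77 and 9.23 in cLP Treg, against 8.48, 8.43 and 7.86 in MLN Treg. The cLP arrays were the higher 3 of the 6. The mean was 9.68 ± 0.41 (SD, n = 3) in cLP Treg and 8.26 ± 0.35 (SD, n = 3) in MLN Treg, a difference of 1.42 ± 0.30 (standard error), or 2.68-fold (limma, adjusted p = 0.0102). The difference was 1.63 above the median of all genes, and 8.03% of genes had a higher one. Before any correction the deposited intensities of this probe were 1019.2, 737.6 and 554.3 in cLP Treg and 603.6, 469.2 and 355.6 in MLN Treg, which overlap in cLP sample 3 and MLN sample 1. The mean intensity of all probes was 405 to 499 on cLP arrays and 539 to 627 on MLN arrays. The call held in all 16 alternatives, with differences of 0.90 to 1.66 and adjusted p of 0.00537 to 0.0404 (limma). The lowest difference, 0.90, came from the authors' deposited values. A second Zc3h12a probe, ILMN_2604411, was detected on 1 cLP array and no MLN array and was not tested.

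The promoter of Zc3h12a is shown because it was the member that passed as higher in the gene-level test, and that of Zfp36 because Zfp36 is a classical immediate early gene whose reported level did not separate the groups. Both are RefSeq windows of GRCm38.p6 from 250 bases before to 50 bases after the annotated start, on the minus strand, and capitals mark the motif matches described next.
Zc3h12a, chr4:125127832-125128131: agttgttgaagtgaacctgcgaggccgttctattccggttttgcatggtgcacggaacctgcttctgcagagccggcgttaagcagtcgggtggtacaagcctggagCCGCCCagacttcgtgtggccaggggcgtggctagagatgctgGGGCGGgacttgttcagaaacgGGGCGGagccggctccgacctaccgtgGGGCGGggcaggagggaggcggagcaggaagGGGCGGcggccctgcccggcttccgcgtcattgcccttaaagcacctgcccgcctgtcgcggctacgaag
Zfp36, chr7:28379179-28379478: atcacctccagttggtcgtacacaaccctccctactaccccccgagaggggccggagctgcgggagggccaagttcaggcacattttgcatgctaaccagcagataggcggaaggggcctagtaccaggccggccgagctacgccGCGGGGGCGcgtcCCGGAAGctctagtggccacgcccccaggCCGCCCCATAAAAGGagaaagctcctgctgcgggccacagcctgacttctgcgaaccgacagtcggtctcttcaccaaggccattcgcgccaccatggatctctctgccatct

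Matches to 7 motifs were searched on both strands in these windows, which RefSeq holds for 6 of the 7 genes, all but Zfp36l2. They were the CArG box bound by serum response factor, the NF-kB site, TGANTCA (AP-1), TGACGTCA (CREB and ATF), GCGNGGGCG (EGR), CCGGAAG (ETS) and GGGCGG (the GC box of SP factors). The Zc3h12a window held 5 matches to GGGCGG, which 35.7% of all 32851 windows contain, and none of the other 6 motifs. The Zfp36 window held CCATAAAAGG, a match to the CArG box, 58 bases upstream of the start, and 1.63% of all windows hold such a match. It overlaps a GGGCGG match on the other strand that begins 63 bases upstream, so their capitals run together. The Zfp36 window also held GCGGGGGCG 105 bases upstream (motif in 5.55% of windows) and CCGGAAG 92 bases upstream (8.86%). Rc3h1 and Zfp36l1 each held TGANTCA, 133 and 129 bases upstream (7.81%). Rc3h1 also held 6 and Zc3h12d 1 match to GGGCGG, and the Rc3h2 window held none of the 7. Matches describe letters in these windows and not sites of binding.

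Tristetraprolin itself, encoded by Zfp36 (chr7:28376784-28379228), differed by less than the spread between arrays. Probe ILMN_3162407 read 12.93, 12.77 and 12.71 in cLP Treg, against 12.51, 13.00 and 12.42 in MLN Treg, so the highest single value was MLN sample 2. The difference was 0.16 ± 0.24 (standard error; 95% confidence interval -0.40 to 0.71; limma, adjusted p = 0.652), and that interval is what these arrays allow. Its sign turned with median scaling (-0.18) and in the authors' deposited values (-0.10), and without MLN sample 2 the difference was 0.33. Relative to the median of all genes it was 0.37.

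Zfp36l1 (chr12:80107760-80113013), a paralogue that also binds AU-rich elements, had all cLP arrays above all MLN arrays on each of its 3 probes, but its reported probe did not pass the threshold. ILMN_2780424 read 14.97, 15.02 and 15.18 in cLP Treg and 14.46, 14.40 and 14.64 in MLN Treg. The difference was 0.55 ± 0.21, or 1.47-fold (95% confidence interval 0.08 to 1.03; limma, adjusted p = 0.0755), and 0.76 relative to the median of all genes. It passed without background correction (adjusted p = 0.0263), with an offset of 50 (0.0437), with array medians set equal (0.0305), in the authors' deposited values (0.0251) and without a detection filter (0.0272). In 11 of its 17 alternatives it did not pass. These included median scaling (limma, adjusted p = 0.0984), the replicate block (0.169) and every fit without 1 array (0.0967 to 0.192). The mean of the 3 probes differed by 0.96 (adjusted p = 0.00911), but it includes a probe at background in MLN Treg, described next. ILMN_1247853 differed by 0.62 ± 0.24 (probe-level limma, adjusted p = 0.0873). Within arrays, the log2 ratio of ILMN_2780424 to ILMN_1247853 differed between groups by -0.06 ± 0.27 (limma, adjusted p = 0.918). The remaining probe, ILMN_2427108, was detected on 3 cLP arrays and no MLN array and was at least 1.91-fold higher, the bound being set by the lowest signal of a detected probe on each MLN array. It was kept only through its cLP values, so it adds no support to the other 2 probes.

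Zfp36l2 (chr17:84183924-84187947), the paralogue with roles in lymphocyte development and quiescence, could not be measured. Its single probe ILMN_2518062 was detected on 1 cLP array only, with log2 values of 5.54, 4.97 and 5.45 in cLP Treg and 4.96, 5.45 and 4.99 in MLN Treg. These overlap and are not well above background, which says nothing of how much of the transcript the cells hold. Without a detection filter the difference was 0.19 ± 0.21 (limma, adjusted p = 0.71).

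Zc3h12d (chr10:7832323-7870397), a Regnase relative expressed in lymphocytes, read 12.08, 12.63 and 12.31 in cLP Treg and 12.07, 11.32 and 12.18 in MLN Treg by ILMN_2680398. The groups overlap, and MLN sample 2 lies below the other 5 arrays. The difference was 0.48 ± 0.30 (95% confidence interval -0.21 to 1.18; limma, adjusted p = 0.261), or 0.21 without MLN sample 2. Relative to all genes it was 0.69.

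In both Roquin genes the 2 kept probes moved in opposite directions, each past the threshold. Rc3h1 (chr1:160906411-160974976) has 3 probes, and the brightest kept one, ILMN_2478331, which carries no transcript accession in the annotation, read 7.63, 7.72 and 8.22 in cLP Treg and 8.79, 8.36 and 9.18 in MLN Treg. The cLP arrays were the lower 3, with a difference of -0.92 ± 0.29, or 1.89-fold lower (limma, adjusted p = 0.0457), and -0.71 relative to the median of all genes. ILMN_2789321, annotated to the RefSeq transcript, read 8.95, 8.23 and 8.09 in cLP Treg and 6.64, 6.50 and 6.74 in MLN Treg. Here the cLP arrays were the higher 3, with a difference of 1.80 ± 0.28, or 3.47-fold (probe-level limma, adjusted p = 0.00343). Both probes were detected on all 6 arrays, so neither reading is one of background. The other Rc3h1 probe, ILMN_1215909, was detected on 1 cLP array.

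Rc3h2 (chr2:37368861-37424370) behaved in the same way. Its brightest kept probe ILMN_1250327 read 6.74, 7.10 and 6.49 in cLP Treg and 8.05, 7.57 and 8.40 in MLN Treg. The difference was -1.23 ± 0.29, or 2.35-fold lower (limma, adjusted p = 0.0159), and -1.02 relative to the median of all genes. The groups did not overlap. ILMN_1251986, annotated to the same RefSeq transcript, read 7.41, 7.21 and 7.47 in cLP Treg and 5.96, 4.90 and 5.08 in MLN Treg. It was higher by 2.05 ± 0.31 (probe-level limma, adjusted p = 0.00322), but it was detected on 1 MLN array only, so part of the MLN mean is background. The other 2 probes of Rc3h2 were detected on no array.

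**Figure D2:**
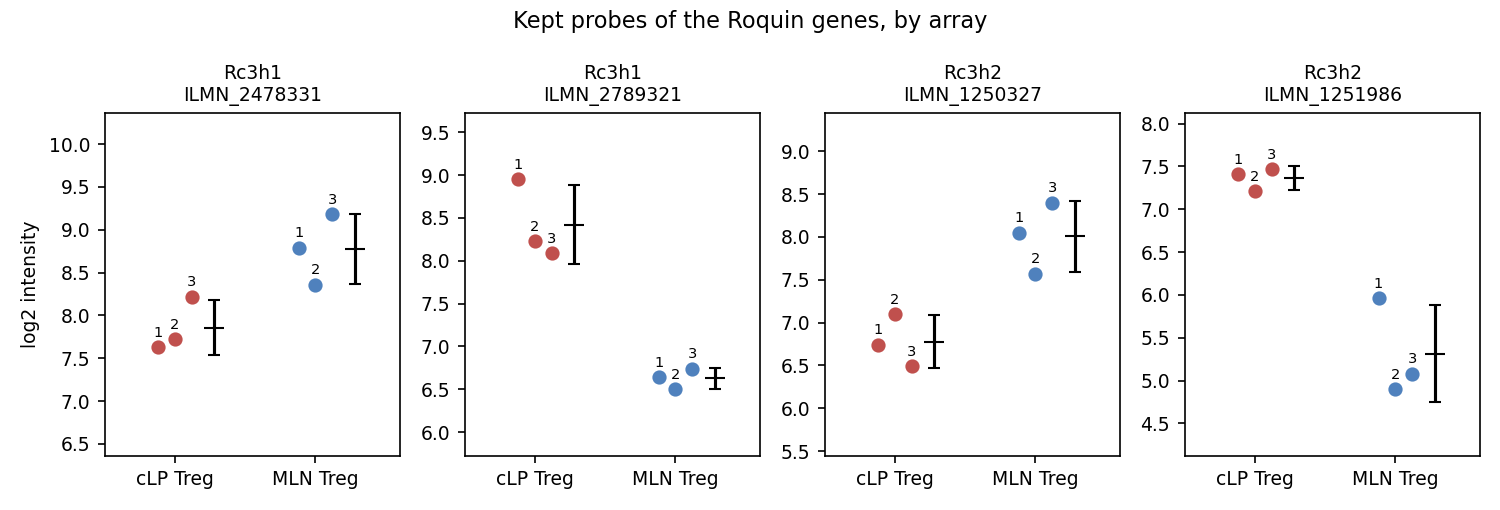
Log2 intensity (vertical axis, a span of 4 units in each panel) of the 2 kept probes of Rc3h1 and the 2 of Rc3h2 on each array of cLP Treg (red, left) and MLN Treg (blue, right); numbers are replicates, and bars show mean ± SD of 3 arrays. In each gene one probe is lower and the other higher in cLP Treg, with no overlap between groups.

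The opposite directions were present before any correction. The deposited intensities of ILMN_2478331 were 287.1, 240.8 and 324.7 in cLP Treg and 729.1, 450.1 and 809.2 in MLN Treg, and those of ILMN_2789321 were 535.4, 306.9 and 305.1 in cLP Treg and 228.8, 195.9 and 195.4 in MLN Treg. For Rc3h2 they were 212.4, 187.0 and 157.6 in cLP Treg against 468.6, 301.3 and 493.5 in MLN Treg on ILMN_1250327, and 265.6, 194.9 and 230.2 in cLP Treg against 179.0, 126.2 and 103.4 in MLN Treg on ILMN_1251986. On each of these 4 probes the groups did not overlap in the deposited intensities either.

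Within each array, the log2 ratio of ILMN_2478331, the probe with the higher mean over the 6 arrays, to ILMN_2789321 was -1.32, -0.51 and 0.13 in cLP Treg and 2.15, 1.86 and 2.44 in MLN Treg. The ratio therefore differed by -2.71 ± 0.40 between the groups. For Rc3h2, the log2 ratio of ILMN_1250327 to ILMN_1251986 was -0.67, -0.12 and -0.98 in cLP Treg and 2.08, 2.67 and 3.32 in MLN Treg, a difference of -3.28 ± 0.39. As ILMN_1251986 was not detected on MLN samples 2 and 3, the ratios of those arrays and this difference are taken against background. In a limma fit over all 4381 such pairs of kept probes, added after the data were seen, the Rc3h1 pair had an adjusted p of 0.00549, and 18.1% of all pairs passed. Of 3145 genes with several kept probes, 2.99% had 1 probe past the threshold as higher and another as lower, as both Roquin genes did. In Rc3h2 the higher probe was the one detected on 1 MLN array only. A ratio within an array is free of array-wide scaling and shows unequal change of the probes. It does not say which probe follows the Roquin mRNA, and the reason for the opposite directions was not tested. RefSeq lists 1 curated transcript of Rc3h1 and 2 of Rc3h2, and the positions of the probes in them were not analysed here.

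Accordingly, the direction of both Roquin genes depended on the probe. As the mean of kept probes, Rc3h1 differed by 0.44 (adjusted p = 0.18) and Rc3h2 by 0.41 (adjusted p = 0.253), and by the next brightest probe they were higher by 1.80 and 2.05. In 15 alternatives of the probe-level fit, ILMN_2789321 and ILMN_1251986 were higher and past the threshold in all 15. For ILMN_1251986, detected on 1 MLN array only, the MLN values are partly background. ILMN_2478331 and ILMN_1250327 were lower in all 15, past the threshold in 8 and in 13. The gene-level call of Rc3h1 ended without cLP sample 1 or 2 or MLN sample 1 or 3 (adjusted p = 0.107, 0.109, 0.126 and 0.143), and that of Rc3h2 without MLN sample 1 or 3 (0.0618 and 0.0588). Rc3h1 had adjusted p of 0.00367 to 0.18 over its 17 alternatives, and Rc3h2 of 0.00345 to 0.253 over as many.

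**Figure D3:**
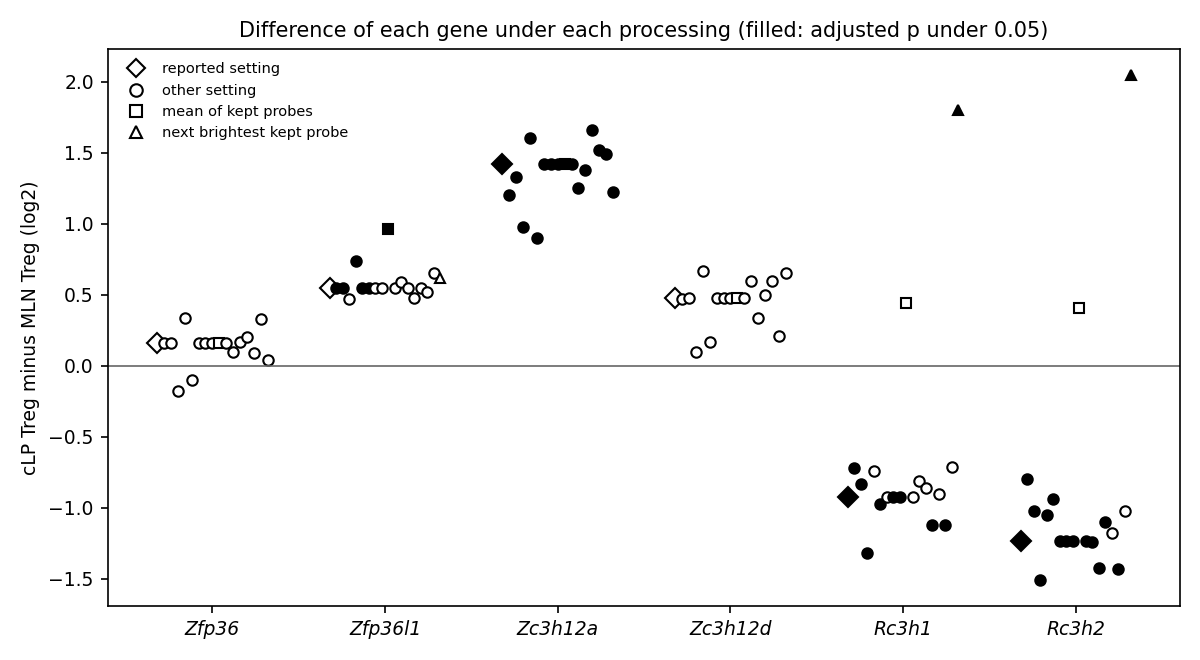
Difference of each tested gene, cLP Treg minus MLN Treg in log2 units (vertical axis), under the reported processing (diamond), the mean of kept probes (square), the next brightest kept probe (triangle) and the other alternatives (circles); filled symbols have an adjusted p under 0.05. Zc3h12a stays between 0.90 and 1.66 throughout, whereas Rc3h1 and Rc3h2 are below 0 except by the mean of kept probes and by the next brightest probe.

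Genes with the most similar pattern over the 6 arrays were sought for the 3 members past the threshold, by the root-mean-square distance between values centred on each gene's own mean. Nearest to Zc3h12a were Ankhd1 (distance 0.12 log2 units), the lymph node homing receptor Ccr7 (0.13) and Nepro (0.15), which were higher in cLP Treg by 1.54, 1.63 and 1.20. Nearest to the reported Rc3h1 probe were Dock9 (0.075), Pphln1 (0.083) and the interferon-induced guanylate binding protein gene Gbp2b (0.12), and nearest to that of Rc3h2 were Mdn1 (0.13), the helicase gene Dhx29 (0.15) and Tiam1 (0.15). With 9157 genes and 6 arrays such closeness is a description only.

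The gene lists used from here on were drawn up with earlier results of these data known. Shares of all genes beside their counts are therefore a description only. Regulators of the decay factors were measured for 11 of 12 genes listed. Of these, 7 were higher and 0 lower in cLP Treg, against 12.1% and 20.4% of all genes. At an unadjusted p under 0.05 (limma) the counts were 7 and 1. The median difference of the regulators was 0.77, against -0.21 for all genes. Dusp1, also on the immediate early list described further on, encodes a phosphatase that inactivates p38 and so acts on the phosphorylation of tristetraprolin. It read 13.40, 13.66 and 13.73 in cLP Treg and 11.10, 12.21 and 10.81 in MLN Treg, a difference of 2.22 ± 0.37 (limma, adjusted p = 0.0042). Mapkapk2, which encodes MK2, the kinase that phosphorylates tristetraprolin, read 12.03, 11.49 and 12.46 in cLP Treg and 10.33, 10.31 and 9.95 in MLN Treg, a difference of 1.79 ± 0.29 (adjusted p = 0.00394). These 2 genes, the largest differences of the list, passed in all 16 alternatives. They separate the groups with cLP Treg above, as 16.8% of all genes do.

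Tank, which works with Regnase-1 in curbing NF-kB signalling, was higher by 1.11 ± 0.25 (limma, adjusted p = 0.0139), and Mapkapk3 lay nearest to 0 at -0.01 ± 0.23. Malt1, singled out after its values were seen because its product cleaves Roquin and Regnase-1, read 10.36, 10.37 and 9.97 in cLP Treg and 8.83, 9.34 and 9.54 in MLN Treg, a difference of 1.00 ± 0.26 (adjusted p = 0.0243). Tank lost its call without MLN sample 1 or 2, with median scaling and in the deposited values, and Malt1 in these, with the replicate block and without cLP sample 1 or 2. The count fell to 2 higher and 2 lower with median scaling, 3 and 1 in the deposited values, 3 and 0 with the replicate block and without cLP sample 1 or 2, and 2 and 0 without MLN sample 1 or 2. The list median stayed above that of all genes under these scalings (0.33 against -0.51, and 0.34 against -0.30).

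Among 15 measured genes of deadenylation, the machinery that tristetraprolin and Roquin recruit, 2 were higher and 1 lower (12.1% and 20.4% of all genes), with a median of 0.15. Tob2, an adaptor of the CCR4-NOT complex, was higher by 2.83 ± 0.54 (adjusted p = 0.0074, limma; all 16 alternatives past the threshold). The deadenylase gene Cnot6l was higher by 0.85 ± 0.24 (adjusted p = 0.029) and the scaffold gene Cnot1 lower, by -0.72 ± 0.21 (0.0361). Of these 2 calls, each was lost with the replicate block and without MLN sample 1, 2 or 3. The adaptor gene Btg1 lay nearest to 0, at 0.15 ± 0.21. With median scaling 1 deadenylation gene was higher and 4 lower, and the median was -0.14.

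In decapping and 5′ to 3′ decay, 0 of 15 measured genes were higher and 3 were lower, where 12.1% and 20.4% of all genes were. At an unadjusted p under 0.05 (limma) the counts were 0 and 4. The list median was -0.34, against -0.21 for all genes. With median scaling it was -0.82 against -0.51, and in the deposited values -0.69 against -0.30, each with 0 higher and 5 lower. Dcp1b (-1.37 ± 0.27), Dcp1a (-0.88 ± 0.28), both of which encode activators of the decapping enzyme, and Lsm2 (-0.75 ± 0.22) were the 3 lower under the reported processing. Patl1 lay nearest to 0 at -0.13. Dcp1b passed in all 16 alternatives, and it was the gene of the list that still passed with the replicate block, with array medians set equal and without cLP sample 1, MLN sample 1 or MLN sample 2.

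For the RNA exosome and nonsense-mediated decay, 1 of 20 measured genes was higher and 5 lower, where 12.1% and 20.4% of all genes were. The median was -0.30, near the -0.21 of all genes. With median scaling and in the deposited values 0 were higher and 7 lower. Without MLN sample 2 the counts were 0 and 2, and with the replicate block or without cLP sample 3, MLN sample 1 or MLN sample 3 they were 0 and 3. The exosome core gene Exosc7 was lower, by -1.48 ± 0.21, as was Smg1 (-1.33 ± 0.24), the kinase that phosphorylates UPF1, and Exosc4 (-1.22 ± 0.29). Upf1, the helicase with which Regnase-1 works, singled out after its values were seen, differed by 0.12 ± 0.27 (adjusted p = 0.777), and Exosc9 lay nearest to 0 at 0.03. Exosc10, a catalytic subunit in the nucleus, was higher by 1.00 ± 0.29 (limma, adjusted p = 0.0312), but passed in 6 of 16 alternatives and was -0.12 as the mean of its kept probes.

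Of 12 measured genes for other RNA-binding proteins and relatives of the members, 2 were higher and 0 lower, where 12.1% and 20.4% of all genes were. At an unadjusted p under 0.05 (limma) the counts were 3 and 0. The median was 0.07, and -0.35 with median scaling. Both that passed as higher encode relatives of the Regnase nuclease domain. N4bp1 read 11.59, 11.44 and 11.65 in cLP Treg and 9.64, 9.35 and 9.56 in MLN Treg, a difference of 2.04 ± 0.21 (limma, adjusted p = 0.000649), and Khnyn was higher by 1.47 ± 0.28 (0.00682). Each passed in all 16 alternatives, but N4bp1 was 0.97 as the mean of its kept probes and Khnyn 0.91 in the deposited values. Zc3h12b and Zc3h12c were not kept. Elavl1, whose product HuR stabilises AU-rich mRNAs and which was likewise singled out, differed by 0.12 ± 0.20, and Nufip2, a partner of Roquin, by 0.02 ± 0.36, the value nearest to 0.

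The mRNAs that these factors are known to act on, listed with earlier results of these data known, were mostly higher in cLP Treg. Of 27 listed, 20 were measured, and 14 were higher and 2 lower (12.1% and 20.4% of all genes), with a median of 1.70 against -0.21. The count stayed between 12 and 15 higher and between 1 and 3 lower in all 16 alternatives. Cxcl1, Il1b and Pim1 were detected on no MLN array and so were kept only through their cLP values. Their bounds were at least 10.2-fold, 1.23-fold and 1.67-fold higher. Il17a was detected on 1 MLN array and Ier3 and Cxcl2 on 2 each, so these too would not have been kept without their cLP values. Il2, Il6, Csf2, Ccl3, Il23a and Ptgs2 were not kept. The largest differences were in the neutrophil chemokine Cxcl2 (5.98 ± 0.78; detected on 2 MLN arrays), Il10 (5.20 ± 0.20) and Il17a (4.17 ± 0.28; detected on 1 MLN array). As the mean of kept probes Cxcl2 differed by 3.91, and in the deposited values Il17a differed by 2.58. Il2ra (-1.67 ± 0.36) and Egr1 (-1.18 ± 0.32) were the 2 lower, and the transferrin receptor gene Tfrc lay nearest to 0 (0.25 ± 0.22). Egr1, also an immediate early gene, lost its call without MLN sample 1, 2 or 3.

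Targets of Roquin and Regnase-1 in T cells were singled out from that list after their values were seen. Icos, a costimulatory receptor whose mRNA Roquin binds, read 12.47, 12.59 and 12.60 in cLP Treg and 9.90, 9.78 and 10.30 in MLN Treg, a difference of 2.56 ± 0.23 (limma, adjusted p = 0.000371). Rel, an NF-kB subunit targeted by Regnase-1, read 10.57, 10.61 and 9.90 in cLP Treg and 5.61, 6.32 and 6.99 in MLN Treg, a difference of 4.05 ± 0.39 (adjusted p = 0.000487). The receptor gene Tnfrsf4 (OX40) was higher by 1.57 ± 0.23, and the NF-kB regulators Nfkbiz and Nfkbid by 1.92 ± 0.22 and 1.52 ± 0.20. All 5 genes separate the groups with cLP Treg above, as 16.8% of all genes do, and passed in all 16 alternatives. They were picked from the 14 higher genes of the list. On the same list Irf4 differed by 0.72 ± 0.25 and did not pass (limma, adjusted p = 0.0647), and Tfrc, Il2ra and Egr1 are given above. Tnf, the classical target of tristetraprolin, differed by -0.67 ± 0.22 and did not pass (adjusted p = 0.0508; 0.0121 to 0.172 over its alternatives).

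**Figure D4:**
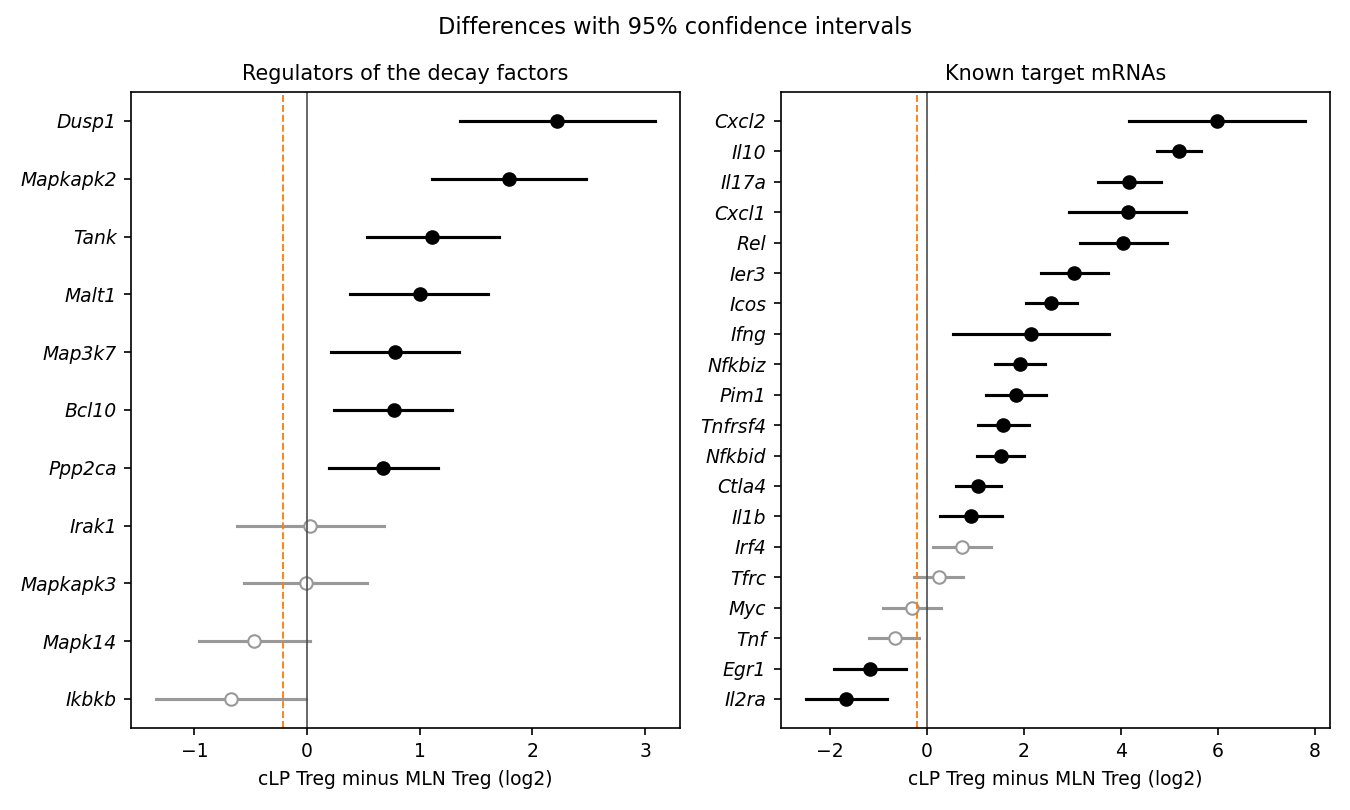
Difference of cLP Treg minus MLN Treg in log2 units (horizontal axis) for the 11 measured regulators of the decay factors (left) and the 20 measured target mRNAs (right); points are estimates, lines 95% confidence intervals, and filled black symbols have an adjusted p under 0.05. The solid line marks 0 and the dashed line the median of all genes (-0.21); 7 regulators and 14 targets are filled to the right of 0.

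Immediate early and heat shock genes, which sorted cells can induce during preparation of the tissue, moved with the same groups. Of 22 measured genes of that list 11 were higher and 3 lower in cLP Treg (12.1% and 20.4% of all genes), with a summed intensity of 101000 to 141000 in cLP Treg and 67600 to 81300 in MLN Treg. Fosl2 was higher by 5.35 ± 0.24 and Hspa1a, detected on 1 MLN array and nearly identical to Hspa1b, by 6.69 ± 0.79, while Egr2 was lower, by -4.36 ± 0.66, as was Egr3 (-3.34 ± 0.21). Hspa8 lay nearest to 0 at 0.22. Atf3, Ier2, Nr4a2 and Nr4a3, 4 of the 11, were detected on no MLN array and so kept only through their cLP values, with bounds of at least 13.9-fold, 1.87-fold, 4.49-fold and 5.10-fold higher. Hspa1a and Fosb, detected on 1 and 2 MLN arrays, would not have been kept without their cLP values either. Egr2, detected on 2 cLP arrays, would not have been kept without its MLN values. The part of such induction in the results on Zc3h12a, Dusp1 and the target mRNAs was not tested.

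Markers of other cells also differed, where 12.1% of all genes were higher and 20.4% lower in cLP Treg. Of stromal and endothelial markers, 5 of 8 were measured, 3 of them higher in cLP Treg, with a summed intensity of 2170 to 3260 in cLP Treg and 772 to 994 in MLN Treg. Those 3, Col3a1, Sparc and Acta2, were detected on no MLN array and kept only through their cLP values, with bounds of at least 5.95-fold, 1.74-fold and 33.7-fold higher. Both measured markers of innate lymphoid and mast cells, of 7 listed, were higher (670 to 2190 in cLP Treg, 68.9 to 312 in MLN Treg). Of these, Kit was detected on 1 MLN array and Hdc on 2, so neither would have been kept without its cLP values. Both measured plasma cell markers of 5 were higher too (4960 to 5060 in cLP Treg, 2450 to 2480 in MLN Treg). This plasma cell sum is almost wholly Xbp1, which averaged 12.26 in cLP Treg and 11.24 in MLN Treg as log2 intensity. The other, Jchain, averaged 6.66 and 5.33. Jchain was detected on no MLN array (at least 2.13-fold) and was kept only through its cLP values. The CD8 and cytotoxic T cell markers had 2 of 3 measured higher, Prf1 and Nkg7, while Cd8b1 differed by -0.78 ± 0.27 without overlap (adjusted p = 0.061), and the sum was 31900 to 33300 in cLP Treg and 19300 to 24200 in MLN Treg. The epithelial markers had 0 of 3 past the threshold (limma; 1 higher at an unadjusted p under 0.05), with sums of 214 to 1040 in cLP Treg and 330 to 459 in MLN Treg. In the other direction, 1 of 2 measured B cell markers (99.9 to 111 in cLP Treg, 337 to 596 in MLN Treg) and 1 of 2 measured markers of myeloid cells (80.1 to 105 in cLP Treg, 126 to 215 in MLN Treg) were lower. That myeloid marker, Lyz2, was detected on 1 cLP array and would not have been kept without its MLN values. Among markers not kept by the detection filter were Pax5, Cd8a, Adgre1, Cd14, Itgam, Vil1, Muc2, Krt18, Krt19, Krt20, Col1a1, Dcn and Cdh5. The plasma cell markers Sdc1, Mzb1 and Derl3 were not kept either, nor were Cpa3, Mcpt1, Mcpt4, Il5 and Ncr1 of the innate lymphoid and mast cell list. The part of such cells in the results above was not tested.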

How the data were processed

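Total RNA of 6 sorted Treg samples was measured on Illumina bead arrays, and groups follow the source labels, since titles of the MLN samples read MSN. The authors deposited an intensity per probe and array on a linear scale, not background-corrected, made in GenomeStudio 1.6.0 according to the submitters' processing notes. Beside each stands a deposited fraction, headed as a detection p but rising with intensity (lowest rank correlation 0.991). The detection p used here is therefore 1 minus that fraction. The series matrix holds deposited log2 values, which equal the log2 intensity minus that of the array's 75th percentile within 0.00036, uncentred. All 45281 probes matched between both tables by value (largest difference 0.035). Column medians were -0.596, -0.689 and -0.661 for cLP samples 1 to 3, and -0.728, -0.607 and -0.848 for MLN samples 1 to 3. The platform annotation gave 34885 probes 1 symbol, 18 several and 10378 none, and 0 symbols needed an update.

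Intensities were corrected with normexp (moments from the detection p, offset 16) and quantile normalised in limma 3.58.1 (R 4.3.3). Probes with a detection p under 0.05 on at least 3 arrays were kept (16215, of which 13538 named), and genes were tested by the brightest kept probe, with lmFit and eBayes, no block and Benjamini-Hochberg adjustment over all 9157 genes. The same fit over all kept probes gave the probe-level values. All differences subtract MLN Treg from cLP Treg in log2 units. Alternatives changed the background correction, scaling, source of values, detection filter, probe, replicate block and set of arrays. The number of arrays limits the precision, and scan or chip was not given in the sources used here.

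The members and lists were chosen with earlier results of these data known. Named from each list were the 3 largest differences past the threshold in each direction and the one nearest to 0. Levels of different probes were set against each other to choose the brightest kept probe of a gene, by its mean over the 6 arrays, and as ratios within arrays between probes of 1 gene. They were also added up over genes in the summed intensities of lists, in which the brightest genes weigh most.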

Additional observations from a re-analysis of the deposited data

How the results depend on the processing

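Leaving out 1 array at a time, the number of genes past the threshold ran from 1808 to 3223 and that of probes from 3126 to 5647, with the lowest counts without MLN sample 1 (1808 and 3126) and MLN sample 2 (1910 and 3399). The count of decay factor genes ran from 1 to 3, differences of Rc3h1 from -1.12 to -0.71, of Rc3h2 from -1.43 to -1.02, of Zc3h12a from 1.22 to 1.66, of Zfp36l1 from 0.48 to 0.65, of Zc3h12d from 0.21 to 0.65 and of Zfp36 from 0.04 to 0.33. Rc3h1 lost its call with array medians set equal (-0.74, adjusted p = 0.0906), without a detection filter (-0.92, 0.0852) and with the replicate block (-0.92, 0.0515). Rc3h1 and Rc3h2 reversed with the mean of kept probes (0.44 and 0.41) and with the next brightest probe (1.80 and 2.05), an alternative chosen after seeing the data, because their kept probes differ in direction. Zfp36 reversed with median scaling (-0.18) and in the deposited values (-0.10), and the cause was not tested. Zfp36l1 passed at 0.55 without background correction, with an offset of 50, in the deposited values and without a detection filter, at 0.74 with array medians set equal and at 0.96 as the mean of probes, which includes one at background in MLN Treg. In its other 11 alternatives Zfp36l1 did not pass. Zc3h12a kept its call and Zc3h12d stayed below the threshold in all 16 alternatives. Of 112 list medians under alternatives, 81 moved by less than the spread between arrays and 31 by more. Replicate numbers did not pair the arrays: deviations of same-numbered arrays correlated at -0.165, -0.105 and -0.011, 0 of 6 arrays correlated best with their own number, and with the block 2453 genes and 4238 probes passed. Probes at background, such as that of Zfp36l2, give no level.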
